A study of Mus musculus with 7 samples.

Results

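The genes described here encode the subunits of the Polycomb repressive complexes. They are the rows of the deposited count table whose Ensembl identifier maps to 34 named mouse genes, 11 of PRC2 and 23 of PRC1, out of 54838 genes in the table. All 34 were in the table, and all 34 passed the low-count filter in both comparisons. RNA was sequenced from 7 mouse cultures, and the labels give no donor mouse, batch or date for any of them. The 3 M-iPSC libraries are induced pluripotent stem cell (iPSC) colonies. What M stands for is not spelled out in the titles. It is read here as germinal center B cells sorted by an endogenous Myc-GFP reporter of activation by T follicular helper (TFH) cells, the sole other source in the design text. The 3 GC-iPSC libraries are iPSC colonies from bulk germinal center B cells (B220+ CD38- Fas+). Both sources were splenic B cells of male mice taken 9 days after immunization with SRBC, an antigen that drives germinal centers. The sorted cells of both sources spent 6 days with cytokines on a feeder layer of mouse embryonic fibroblasts (MEF). They were then reprogrammed for 10 days with doxycycline (Dox) and kept for 4 days without it, before 3 colonies per source were picked by hand. Colonies were passaged on gelatin alone and pre-plated for 45 min to remove feeder cells. The single V6.5 library is an established mouse embryonic stem cell line. Cultures were grown in KO-DMEM with fetal serum and LIF, which keeps mouse stem cells undifferentiated. Each colony is 1 clone, and p-values measure the spread among these colonies, which the labels do not tie to separate mice.

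Polycomb proteins keep developmental genes silent. PRC2 methylates a lysine in the tail of histone H3 through its catalytic subunit, Ezh2 or Ezh1, which works only together with Eed and Suz12. Eed also binds the finished mark, so that the complex is stimulated where the mark already lies. PRC1 attaches ubiquitin to histone H2A through Rnf2 or Ring1 paired with a Pcgf protein. Canonical PRC1 holds a Cbx protein that reads the PRC2 mark and a Phc protein that self-associates and compacts chromatin. Variant PRC1 holds Rybp or Yaf2 in place of Cbx, and part of it is brought to CpG islands by Kdm2b, which binds unmethylated CpG. In mouse embryonic stem cells both complexes occupy the CpG-rich promoters of lineage regulators such as the Hox genes. Stem cells without PRC2 still renew themselves but differentiate poorly.

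Levels are given as CPM, counts scaled to a common library size by TMM. At a count of 0, up to 3 counts cannot be told from none, or 0.0840 to 0.0963 CPM by library. No Polycomb subunit came near that floor: the lowest count was 52, for Cbx8, and the highest was 24842, for Phc1. Library totals ran from 31139508 counts in V6.5 to 35728921 counts in GC colony 1, and 23609 to 25400 genes had a count. Pluripotency genes summed to 4490 to 4869 CPM in M colonies and 4583 to 4853 CPM in GC colonies, against 6454 CPM in V6.5 (10 genes, including Pou5f1, Sox2 and Nanog). The overlapping sums hide shifts in opposite directions. Pou5f1 averaged 491 CPM in M colonies and 374 CPM in GC colonies, and Fbxo15 131 and 224 CPM. Of 10 B cell markers, 7 were under 1 CPM in every library and Blk was at 0 in all 7. Their sums were 7.70 to 8.80 CPM in M colonies and 9.18 to 9.51 CPM in GC colonies, against 10.2 CPM in V6.5. M colonies 2 and 3 had 0 counts of Uty, a Y-linked relative of the histone demethylase Kdm6a, although the mice are labelled male. Uty was at 19.1 CPM in M colony 1 and at 16.98, 17.1 and 18.6 CPM in the GC colonies, against 5.29 CPM in V6.5. Calls of subunits are therefore also given without M colonies 2 and 3 where they change.

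Promoter sequence was available from RefSeq (build GRCm38.p6) for 29 of the 34 genes, with the window ahead of the most upstream annotated start of each. Those of Suz12, Rbbp4, Pcgf5 and Bcor are shown, because Suz12, Pcgf5 and Bcor differed between the colonies and V6.5 in every fit that left out a colony, and Rbbp4 carries an E-box. Each is the 250 bases before the start on the gene's own strand, written 5′ to 3′ in lower case, and capitals mark a motif match.
Suz12: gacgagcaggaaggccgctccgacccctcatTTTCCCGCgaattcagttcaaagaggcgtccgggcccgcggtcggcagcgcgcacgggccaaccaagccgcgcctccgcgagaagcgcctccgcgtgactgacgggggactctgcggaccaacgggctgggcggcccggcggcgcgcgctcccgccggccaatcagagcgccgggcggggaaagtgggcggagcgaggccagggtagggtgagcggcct
Rbbp4: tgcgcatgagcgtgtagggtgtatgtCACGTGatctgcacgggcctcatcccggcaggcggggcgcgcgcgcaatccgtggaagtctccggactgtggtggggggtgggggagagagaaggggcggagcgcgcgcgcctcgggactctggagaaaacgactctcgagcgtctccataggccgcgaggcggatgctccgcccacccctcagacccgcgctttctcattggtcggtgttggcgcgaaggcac
Pcgf5: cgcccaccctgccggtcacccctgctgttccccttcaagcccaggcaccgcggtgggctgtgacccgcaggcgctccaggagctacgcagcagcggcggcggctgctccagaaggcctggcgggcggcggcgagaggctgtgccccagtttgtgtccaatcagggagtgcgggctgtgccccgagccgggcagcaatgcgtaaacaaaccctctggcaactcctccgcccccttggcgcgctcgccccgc
Bcor: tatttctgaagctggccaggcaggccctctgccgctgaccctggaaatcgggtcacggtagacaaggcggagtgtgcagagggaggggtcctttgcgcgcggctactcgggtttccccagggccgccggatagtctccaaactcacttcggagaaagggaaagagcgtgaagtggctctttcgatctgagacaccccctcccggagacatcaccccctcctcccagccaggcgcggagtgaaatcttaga
The Suz12 window is chr11:79992856-79993105 on the plus strand, and its capitals match the motif TTTNNCGC, of the kind E2F cell-cycle factors bind. The Rbbp4 window is chr4:129335371-129335620 on the minus strand, and its capitals are the E-box CACGTG, the letters that Myc and Max bind. The Pcgf5 window is chr19:36348079-36348328 on the plus strand, ahead of the first of 3 annotated starts. The Bcor window is chrX:12160356-12160605 on the minus strand, ahead of the first of 2 annotated starts. Neither of these last windows holds any of the motifs searched.

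Polycomb promoters were CpG-rich. The 29 windows held a median of 21 CpG dinucleotides in 250 bases, against 15 in the windows of 12069 genes tested between the colony groups and 6 in those of all 27018 genes with a window. Single windows held from 1 to 45. Each motif was searched on both strands. The E-box CACGTG, which reads the same on both strands, was in the windows of 8 of 29 Polycomb genes (27.6%), against 8.30% of the tested genes and 6.04% of all genes. These 8 were Rbbp4, Pcgf2, Bmi1, Cbx6, Cbx8, Phc2, Phc3 and Bcorl1, 7 of them PRC1 genes. The E2F-type motif TTTNNCGC was in 2 of 29 windows (6.90%), against 6.92% of tested genes and 4.40% of all genes. The ETS-type motif CCGGAAG was in 0 of 29 windows, against 12.8% of tested genes and 7.07% of all genes. A match is one of letters in a short window and was not taken as a site of binding.

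All 34 subunits had counts in every library, at levels that differed far more between genes than between libraries. To compare genes with each other, CPM were divided by the length of all annotated exons of the gene in kb. In PRC2, the histone-binding proteins came first: Rbbp7 averaged 143.6 and Rbbp4 54.9 CPM per kb over the 7 libraries. Both also belong to histone deacetylase and chromatin assembly complexes, so their RNA is not a measure of PRC2 alone. The scaffold Suz12 (50.9), the Jumonji-family cofactor Jarid2 (49.9), the Polycomb-like protein Mtf2 (49.02), Eed (43.4) and the methyltransferase Ezh2 (37.1 CPM per kb) lay within a narrow range. The zinc finger cofactor Aebp2 (12.4), the second methyltransferase Ezh1 (7.40) and the other Polycomb-like proteins Phf1 (3.17) and Phf19 (2.23 CPM per kb) followed. With the length of the longest coding transcript instead, Ezh2 averaged 88.9 and Suz12 57.6 CPM per kb, so the order of Suz12 and Ezh2 depends on the length used. Ezh1 stayed below each of the 6 PRC2 genes from Rbbp4 to Ezh2 on either length.

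In PRC1, the Polyhomeotic protein Phc1 led at 135.2 CPM per kb. The chromodomain protein Cbx7 (37.0), the E3 ligase Rnf2 (30.2), the Pcgf protein Pcgf2 (25.7) and the adaptor Rybp (22.2 CPM per kb) came next. The other ligase, Ring1, averaged 4.18 CPM per kb, and Bmi1, the Pcgf protein best known from blood and neural stem cells, 3.51 CPM per kb. Bcorl1, a relative of the corepressor Bcor, averaged 1.25 CPM per kb, Auts2, a partner of Pcgf3 and Pcgf5 complexes, 1.14, and Cbx8 was lowest at 0.67 CPM per kb. Summed over all subunits of a complex, PRC2 genes came to 454.3 ± 0.9 CPM per kb in M colonies and 451.1 ± 8.9 CPM per kb in GC colonies (SD, n = 3 each), against 462.1 CPM per kb in V6.5. PRC1 genes came to 379.5 ± 5.6 CPM per kb in M colonies and 359.3 ± 6.6 CPM per kb in GC colonies (SD, n = 3 each), against 367.6 CPM per kb in V6.5. The PRC1 sums of the 3 M colonies, 373 to 383 CPM per kb, all lay above those of the 3 GC colonies, 352 to 364 CPM per kb, with V6.5 between M colonies and GC colonies. Phc1 was the largest single part of the PRC1 sum. The order of PRC1 genes between Phc1 and Cbx8 also depends on the length used. By the longest coding transcript, Auts2 averaged 4.85 CPM per kb, above Bmi1 at 3.88. Pcgf6 (37.5) and L3mbtl2 (29.8) then came ahead of Rybp (23.4 CPM per kb).

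**Figure D1:**
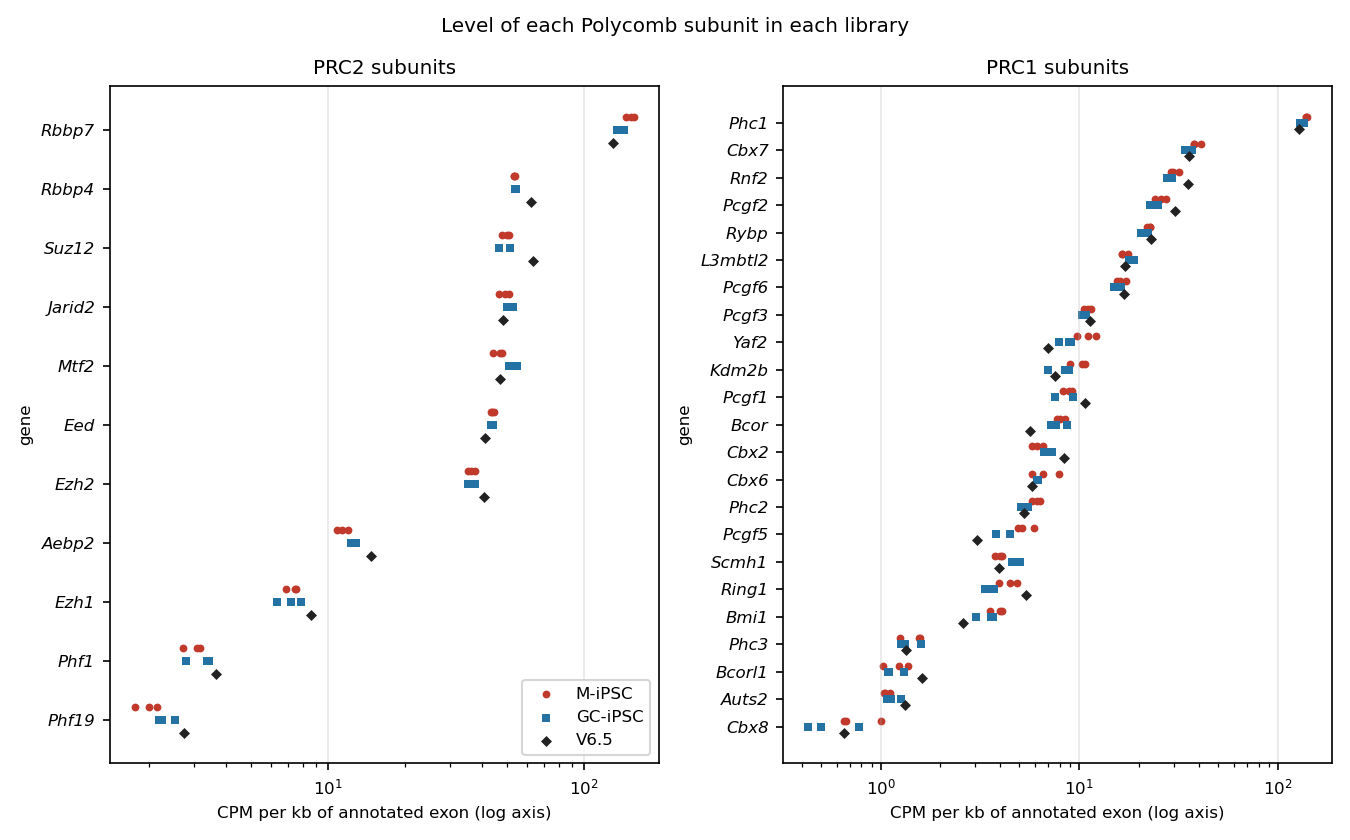
Level of each PRC2 subunit (left) and PRC1 subunit (right) in every library, as CPM per kb of annotated exon on a log axis, with circles for M-iPSC colonies, squares for GC-iPSC colonies and a diamond for V6.5. The points of a gene lie close together beside the distance between genes, from 143.6 CPM per kb for Rbbp7 to 0.67 CPM per kb for Cbx8.

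The 6 colonies agreed closely for most subunits. The coefficient of variation (SD over mean) across colonies was under 10% for 23 of 34 genes. It was lowest for Rbbp4, at 0.579%, and for Eed, at 1.02%, and highest for Cbx8, at 30.4%, whose counts were the lowest. Pcgf5, Kdm2b, Ring1 and Yaf2, at 14.4% to 16.0%, varied more than most, and their values by source are given with the comparison of M-iPSC and GC-iPSC colonies.

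Within most sets of paralogs, 1 gene supplied most of the RNA in all 7 libraries. Ezh2 made up 83.4% of the summed Ezh2 and Ezh1 level on average and 82.6% to 84.8% by library, with no group standing apart. Rnf2 made up 87.9% of the Rnf2 and Ring1 level, Phc1 95.04% of the Phc level, Mtf2 90.1% of the Mtf2, Phf1 and Phf19 level, and Cbx7 72.8% of the level of the 4 Cbx genes listed. The Pcgf proteins, which tell PRC1 subtypes apart, were more evenly shared: Pcgf2 held 36.9% and Pcgf6 23.2%. With the longest coding transcript as the length, Pcgf2 held 31.4% and Pcgf6 32.4%, so which of them leads is not settled here. The other paralog sets kept their leading gene on that length.

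**Figure D2:**
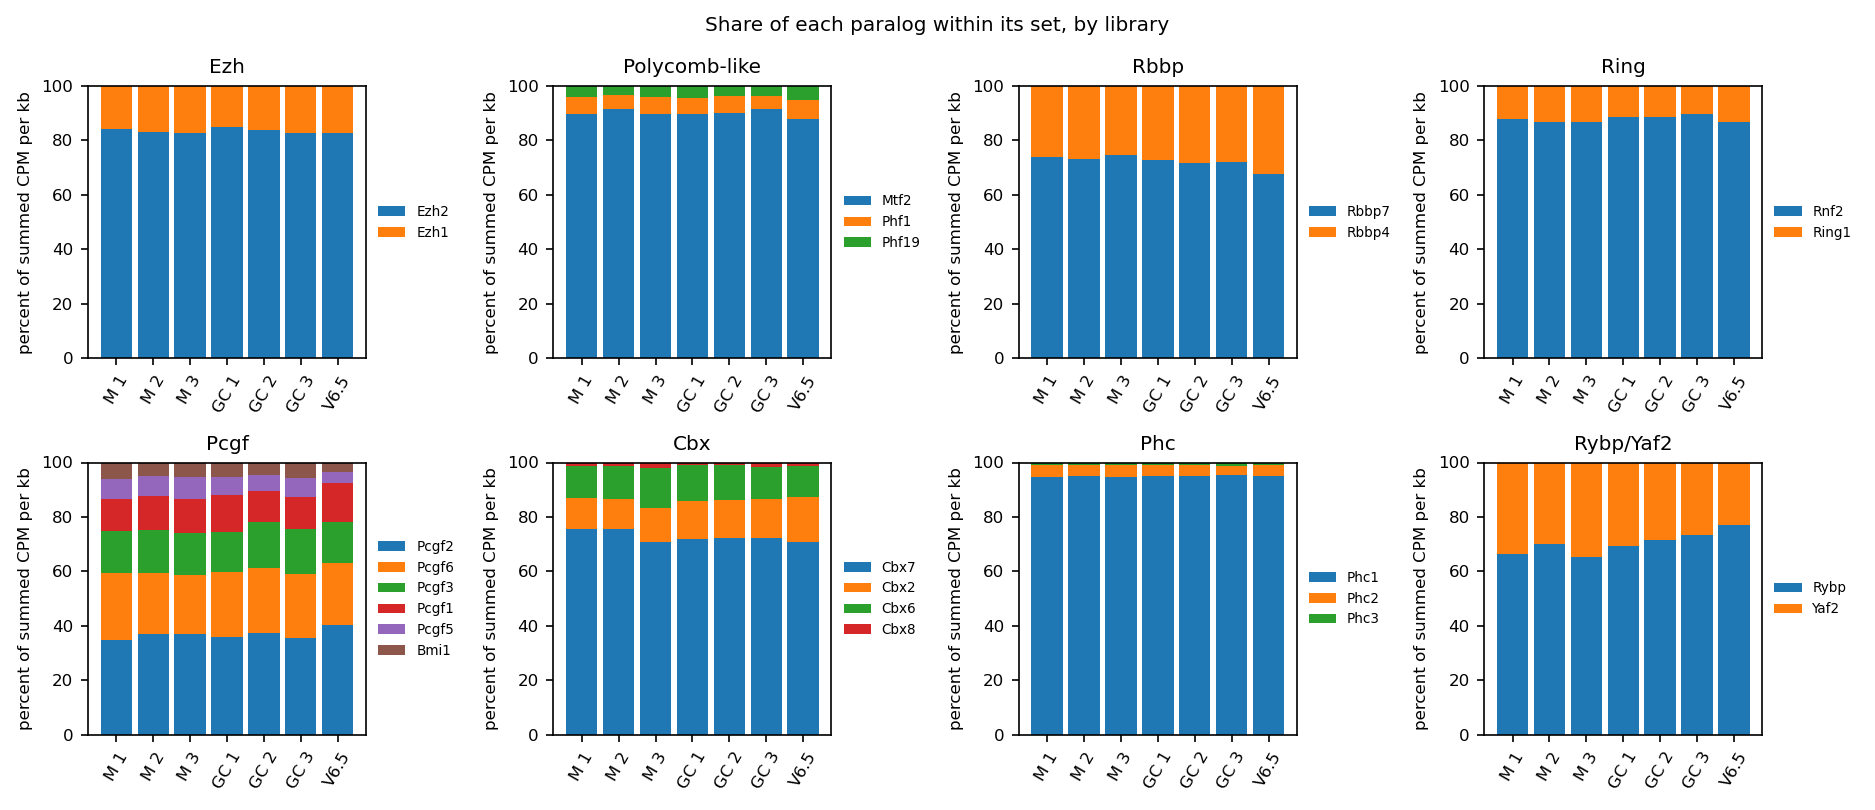
Percent of the summed CPM per kb of each paralog set that each gene holds, by library, as bars stacked to 100%. With lengths from all annotated exons, the leading gene of each set is the same in all 7 libraries, and Ezh2 stays between 82.6% and 84.8%.

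A few paralog shares are given by group, as descriptions without a test. Yaf2, the paralog of Rybp, held 32.8% ± 2.6 of their joint level in M colonies and 28.6% ± 2.1 in GC colonies (SD, n = 3 each), against 23.1% in V6.5. Cbx2 held 11.7% ± 0.5 of the Cbx level in M colonies and 14.1% ± 0.2 in GC colonies (SD, n = 3 each), against 16.4% in V6.5. Bcorl1 held 13.1% ± 2.2 of the Bcor and Bcorl1 level in M colonies and 12.9% ± 0.4 in GC colonies (SD, n = 3 each), against 22.2% in V6.5. By the longest coding transcript the share of Cbx2 was 7.30% ± 0.36 in M colonies and 8.83% ± 0.14 in GC colonies (SD, n = 3 each), against 10.4% in V6.5, and Cbx2 came behind Cbx6 in place of ahead of it. For Yaf2 the M and GC shares overlapped, and for Cbx2 they did not. For Bcorl1, V6.5 lay above all 6 colonies.

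The comparison of M-iPSC with GC-iPSC colonies asks whether iPSC made from Myc-GFP-sorted cells differ from those made from bulk germinal center B cells. No Polycomb subunit passed the test: 0 of 34 had an edgeR adjusted p under 0.05, against 3.97% of the 18166 genes tested (1.7% higher and 2.27% lower in M colonies). The adjusted p is a Benjamini-Hochberg value of the two-sided quasi-likelihood test over all genes tested. At an unadjusted p under 0.05, 5 subunits were higher and 3 lower in M colonies, against 7.97% and 8.67% of all genes (16.6% in either direction). DESeq2 called 2 higher and 1 lower (6.11% of all genes), limma-voom called none (3.9% of all genes), and edgeR with no low-count filter called 2 higher (4.17% of all genes). The median log2 change of the 34 genes was 0.05, against 0.00 for all genes tested. The 95% interval of the change lay within 1.5-fold in either direction for 32 of 34 subunits, against 10169 of 18166 genes; Cbx8 and Yaf2 were the exceptions. RNA from a mixed culture cannot tell fewer cells of a type from less RNA per cell.

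The PRC2 core genes differed little between the colony groups. Ezh2 was at 243, 250.4 and 236 CPM in M colonies 1, 2 and 3, against 236, 246 and 251 CPM in GC colonies 1, 2 and 3. The groups overlapped, and the log2 change was -0.01 ± 0.06 (SE), with a 95% interval from -0.14 to 0.11. Eed was at 167, 170.0 and 165 CPM in M colonies 1, 2 and 3, against 168, 166 and 169 CPM in GC colonies 1, 2 and 3. These 6 values ranged from 165 to 170.0 CPM with the groups overlapping, and the log2 change was -0.004 ± 0.056 (SE), with a 95% interval from -0.13 to 0.12. Suz12 was at 237, 248 and 252 CPM in M colonies 1, 2 and 3, against 230.0, 229.6 and 255 CPM in GC colonies 1, 2 and 3. M values lay inside the range of the GC values, and the log2 change was 0.04 ± 0.06 (SE). Ezh1 was at 51.01, 56.1 and 55.3 CPM in M colonies 1, 2 and 3, against 47.2, 53.3 and 58.7 CPM in GC colonies 1, 2 and 3. Again the groups overlapped, with a log2 change of 0.03 ± 0.09 (SE). The edgeR adjusted p values of these 4 genes ran from 0.808 for Suz12 to 0.985 for Eed. Rbbp4 ranged from 467 to 472 CPM in M colonies and from 470.3 to 473 CPM in GC colonies. Rbbp7, on the X chromosome, was the 1 core gene whose groups did not overlap, at 444, 427 and 455 CPM in M colonies 1, 2 and 3, against 419, 394 and 407 CPM in GC colonies 1, 2 and 3 (log2 change 0.12 ± 0.06 SE, edgeR adjusted p = 0.314).

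All 5 accessory PRC2 genes had a negative log2 change, from -0.24 for Phf19 to -0.07 for Jarid2. Of all 18166 genes tested, 8971 had a negative change. Mtf2 was at 267, 274 and 251 CPM in M colonies 1, 2 and 3, against 291, 293 and 312 CPM in GC colonies 1, 2 and 3. Mtf2 binds CpG-rich DNA and brings PRC2 to it. Its 3 M values all lay below its 3 GC values, with a log2 change of -0.18 ± 0.06 (SE) and an edgeR adjusted p of 0.130. Aebp2 was at 107, 118 and 112 CPM in M colonies 1, 2 and 3, against 121, 124 and 127 CPM in GC colonies 1, 2 and 3. Phf19 was at 10.8, 8.86 and 10.05 CPM in M colonies 1, 2 and 3, against 12.7, 11.03 and 11.4 CPM in GC colonies 1, 2 and 3. Both had every M value below every GC value, and neither passed the test (edgeR adjusted p = 0.252 for Aebp2 and 0.386 for Phf19). Summed, the accessory genes came to 111.7 ± 3.8 CPM per kb in M colonies and 121.8 ± 3.3 CPM per kb in GC colonies, and the 6 core genes to 342.6 ± 3.6 CPM per kb in M colonies and 329.4 ± 6.0 CPM per kb in GC colonies (SD, n = 3 each). Rbbp7 was the largest single part of the core sum and of its difference between the groups. It averaged 151.9 ± 4.9 CPM per kb in M colonies and 139.8 ± 4.4 in GC colonies (SD, n = 3 each). Of the other core genes, Suz12 differed most, at 49.7 CPM per kb in M colonies and 48.1 in GC colonies.

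In PRC1, 19 of 23 genes had a positive log2 change and 4 a negative one, against 9195 positive of 18166 genes tested. The PRC1 median was 0.08. In fits that left out 1 colony, 17 to 19 were positive, and without M colonies 2 and 3, 15 were. Rnf2 was at 119, 131 and 123 CPM in M colonies 1, 2 and 3, against 114, 118 and 122 CPM in GC colonies 1, 2 and 3. The groups overlapped, and the log2 change was 0.08 ± 0.06 (SE, edgeR adjusted p = 0.621). Ring1 was at 12.7, 15.7 and 14.5 CPM in M colonies 1, 2 and 3, against 11.5, 12.04 and 10.9 CPM in GC colonies 1, 2 and 3. The lowest M value lay above the highest GC value, with a log2 change of 0.31 ± 0.12 (SE, edgeR adjusted p = 0.204).

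Among the Pcgf genes, Pcgf5, which defines a variant PRC1 with a role in X-chromosome silencing, had the smallest p of all 34 subunits. Pcgf5 was at 64.8, 61.9 and 74.7 CPM in M colonies 1, 2 and 3, against 56.6, 48.2 and 56.8 CPM in GC colonies 1, 2 and 3. Its groups did not overlap, and the log2 change was 0.31 ± 0.09 (SE, edgeR adjusted p = 0.0789). Its adjusted p was 0.0244 with DESeq2 and 0.00615 with no low-count filter. The other 5 Pcgf genes had changes from 0.05 for Pcgf3 to 0.17 for Bmi1, each with overlapping groups.

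Kdm2b and Scmh1 came next by p, in opposite directions. Kdm2b was at 97.5, 116 and 112 CPM in M colonies 1, 2 and 3, against 75.7, 91.8 and 95.98 CPM in GC colonies 1, 2 and 3. GC colony 1 was the lowest of the 6 and the groups did not overlap, with a log2 change of 0.30 ± 0.09 (SE, edgeR adjusted p = 0.103). DESeq2 gave an adjusted p of 0.0376, the fit with no low-count filter 0.00300, and the fit without GC colony 3 0.0492. Scmh1 was at 31.5, 30.9 and 29.1 CPM in M colonies 1, 2 and 3, against 36.9, 38.8 and 35.4 CPM in GC colonies 1, 2 and 3. Scmh1, a canonical PRC1 partner of the Phc proteins, was below every GC value in all 3 M colonies, with a log2 change of -0.28 ± 0.08 (SE, edgeR adjusted p = 0.0844). Only DESeq2 among the other settings called it (adjusted p = 0.0496). Yaf2 was at 20.8, 18.1 and 22.9 CPM in M colonies 1, 2 and 3, against 17.1, 16.7 and 14.8 CPM in GC colonies 1, 2 and 3. The Yaf2 groups did not overlap, and the log2 change was 0.34 ± 0.12 (SE, edgeR adjusted p = 0.134). Pcgf5, Kdm2b, Scmh1, Ring1, Mtf2 and Yaf2 were singled out after their values were seen.

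Cbx7 was at 245, 265 and 245 CPM in M colonies 1, 2 and 3, against 222, 229 and 240.0 CPM in GC colonies 1, 2 and 3. Cbx7 is the main reader of the PRC2 mark in undifferentiated mouse stem cells. Its groups did not overlap, with a log2 change of 0.12 ± 0.06 (SE, edgeR adjusted p = 0.330). Cbx2 was at 24.5, 26.1 and 27.9 CPM in M colonies 1, 2 and 3, against 28.3, 28.9 and 31.1 CPM in GC colonies 1, 2 and 3. The Cbx2 protein can compact nucleosomes by itself. Its M values lay below its GC values, the reverse of Cbx7, with a log2 change of -0.17 ± 0.09 (SE, edgeR adjusted p = 0.387). Phc2 was at 44.9, 40.8 and 43.03 CPM in M colonies 1, 2 and 3, against 38.1, 38.95 and 35.9 CPM in GC colonies 1, 2 and 3. The M values were the higher, with a log2 change of 0.18 ± 0.08 (SE, edgeR adjusted p = 0.258). Cbx6 overlapped, at 61.1, 69.3 and 84.2 CPM in M colonies against 65.2, 66.1 and 65.2 CPM in GC colonies, with the M colonies spread on both sides of the GC colonies.

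Variant PRC1 genes other than Kdm2b and Yaf2 had small changes. L3mbtl2 was at 104, 97.97 and 97.2 CPM in M colonies 1, 2 and 3, against 105, 109 and 112 CPM in GC colonies 1, 2 and 3. L3mbtl2, an MBT-domain protein of the Pcgf6 complex, was lower in all 3 M colonies than in any GC colony, with a log2 change of -0.13 ± 0.06 (SE, edgeR adjusted p = 0.325). Rybp, Bcor, Bcorl1 and Auts2 had overlapping groups and log2 changes of 0.06, 0.03, 0.06 and -0.11, and their adjusted p values ran from 0.635 to 0.903.

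Non-overlap of the 3 M and 3 GC values was found for 14 of 34 subunits (41.2%), against 22.1% of all genes tested. M colonies were above GC colonies for 8 subunits (9.81% of all genes), namely Rbbp7, Ring1, Pcgf5, Cbx7, Phc1, Phc2, Yaf2 and Kdm2b. They were below for 6 (12.3% of all genes), namely Mtf2, Phf19, Aebp2, Cbx2, Scmh1 and L3mbtl2. The sizes were small: among these 14, Phc1 had the smallest change, 0.06, at 738, 744 and 732 CPM in M colonies against 684, 721 and 719 CPM in GC colonies, and Yaf2 the largest, 0.34. The widest interval was that of Cbx8 (log2 change 0.44 ± 0.29 SE, 95% interval -0.18 to 1.06), at 2.45, 2.40 and 3.68 CPM in M colonies against 1.83, 1.58 and 2.86 CPM in GC colonies. Of the 8 genes with an E-box in the promoter window, 7 had a positive log2 change and 0 passed the test. Of the 21 genes whose window holds none, 12 had a positive change and 0 passed. Among all genes tested, 9195 of 18166 had a positive change. The 7 are all PRC1 genes, and 19 of 23 PRC1 genes had a positive change. The part of the motif was not tested.

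**Figure D3:**
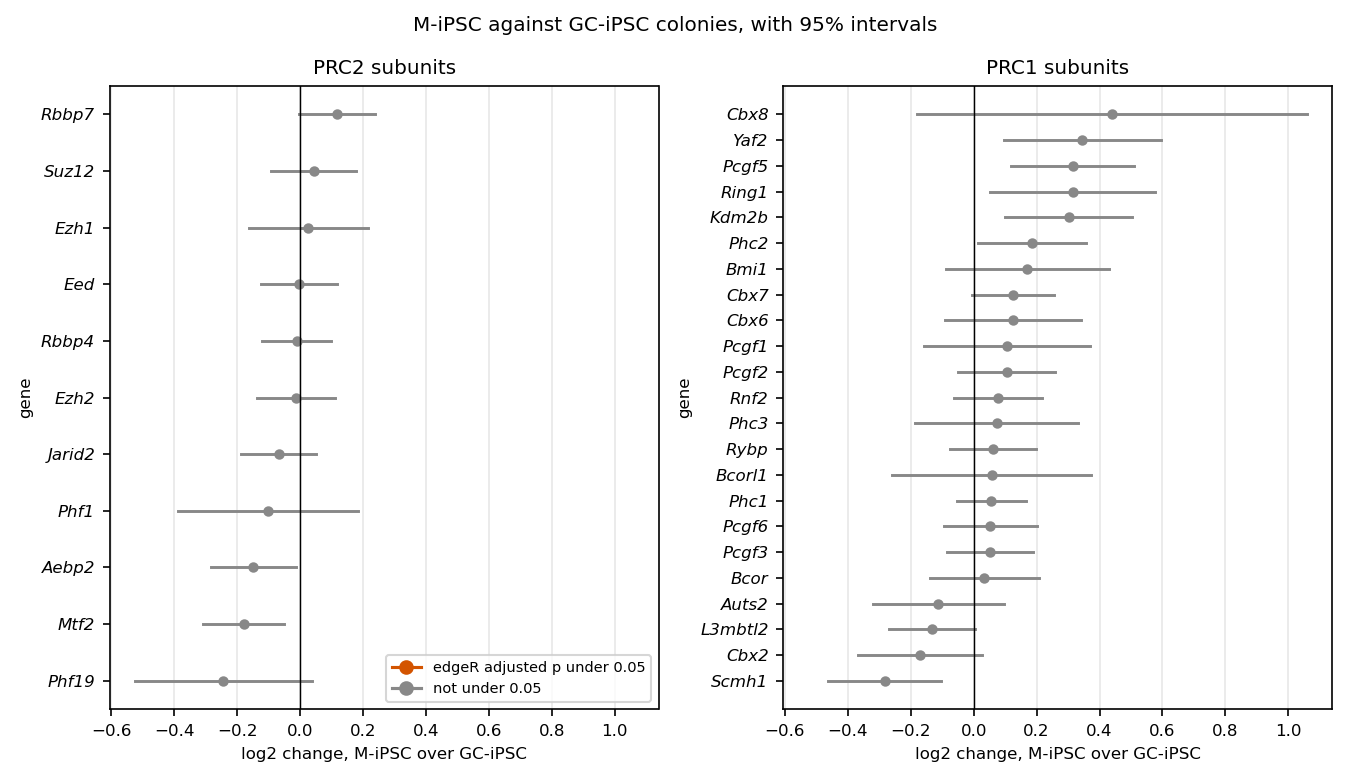
log2 change of each PRC2 subunit (left) and PRC1 subunit (right) in M-iPSC over GC-iPSC colonies, with 95% intervals from the edgeR fit. All 34 are grey because none had an adjusted p under 0.05, and the widest interval is that of Cbx8, from -0.18 to 1.06.

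Primitive endoderm markers moved with the colony groups. They mark an extraembryonic lineage that can arise in stem cell cultures. They summed to 603 to 1039 CPM in M colonies, against 395 to 508 CPM in GC colonies. By edgeR 3 of 10 were called higher, against 1.7% of all genes. Calls in either direction came to 6.11% of all genes with DESeq2, 3.9% with limma-voom and 4.17% with no low-count filter. The M and GC values of the markers Gata4, Gata6, Sox17, Foxa2 and Pdgfra overlapped. DESeq2 called 6 of 10 higher, limma-voom 3, edgeR with no low-count filter 9, and edgeR without M colonies 2 and 3 called 7, among them Gata4 (adjusted p = 0.0106), Gata6 (0.0320), Foxa2 (0.0198) and Pdgfra (0.00965). Fibroblast markers summed to 789 to 1010 CPM in M colonies, against 715 to 854 CPM in GC colonies, with 0 of 13 called by edgeR or limma-voom. DESeq2, edgeR with no low-count filter and edgeR without M colonies 2 and 3 called 1 higher, Pdgfra, which is in both marker lists. Lum and S100a4 of the 15 fibroblast markers were under 1 CPM in every library, and none of either list was at 0 throughout. The part of such cells in the Polycomb values was not tested. Pluripotency genes moved both ways between M and GC colonies: 4 of 10 had a positive and 6 a negative log2 change. For these genes edgeR called 2 higher and 1 lower, against 1.7% and 2.27% of all genes. Their part in the Polycomb differences between M and GC colonies was not tested either.

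The comparison of the colonies with V6.5 asks how the reprogrammed cells stand beside an established pluripotent line. Suz12, Rbbp4 and Aebp2 of PRC2 and Rnf2 of PRC1 fell in the colonies, by 0.21 to 0.37 on the log2 scale, and Pcgf5 and Bcor of PRC1 rose, by 0.64 and 0.50. In total, 6 of 34 subunits passed the test (17.6%), against 16.3% of the 20502 genes tested. Without M colony 1, M colony 3 or GC colony 1, 2 subunits fell in place of 4, and without GC colony 2, 1 did. The 2 that rose stand beside 8.76% of all genes, and the 4 that fell beside 7.56%. At an unadjusted p under 0.05, 5 subunits were higher and 11 lower, against 15.2% and 13.4% of all genes (28.6% in either direction). The share called is near that of all genes. In PRC2, 0 of 11 rose and 3 fell, with a median log2 change of -0.21. In PRC1, 2 of 23 rose and 1 fell, with a median of 0.05, and the median of all genes tested was 0.02. V6.5 is 1 library, assumed to vary as the colonies do, so the line and the library cannot be told apart.

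Suz12, the scaffold that joins Ezh2 to the other subunits, had the smallest p in PRC2. It was at 237, 248 and 252 CPM in M colonies 1, 2 and 3 and 230.0, 229.6 and 255 CPM in GC colonies 1, 2 and 3, against 312 CPM in V6.5. V6.5 was above all 6 colonies. The log2 change was -0.37 ± 0.08 (SE, edgeR adjusted p = 0.00675), and it passed in all 6 fits that left out 1 colony.

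Aebp2 was at 107, 118 and 112 CPM in M colonies and 121, 124 and 127 CPM in GC colonies, against 145 CPM in V6.5. All colonies were lower than V6.5, with a log2 change of -0.30 ± 0.08 (SE, edgeR adjusted p = 0.0235). Without GC colony 2 the adjusted p was 0.0593. Rbbp4 varied little among colonies, at 472, 467 and 467 CPM in M colonies and 473, 470.3 and 471 CPM in GC colonies, against 542 CPM in V6.5. Its log2 change was -0.21 ± 0.07 (SE, edgeR adjusted p = 0.0479), which passed in only 1 of 6 fits that left out a colony, the one without GC colony 3. In the other 5, without M colony 1, 2 or 3 or GC colony 1 or 2, the adjusted p was 0.0536 to 0.117. It was 0.128 without M colonies 2 and 3, 0.0508 with DESeq2 size factors and 0.0830 with no low-count filter.

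The catalytic and mark-binding subunits of PRC2 did not pass. Ezh2 was at 243, 250.4 and 236 CPM in M colonies and 236, 246 and 251 CPM in GC colonies, against 272 CPM in V6.5. The log2 change was -0.16 ± 0.08 (SE, 95% interval -0.32 to 0.00, edgeR adjusted p = 0.181). Ezh1 was at 51.01, 56.1 and 55.3 CPM in M colonies and 47.2, 53.3 and 58.7 CPM in GC colonies, against 63.8 CPM in V6.5, with a log2 change of -0.25 ± 0.11 (SE, edgeR adjusted p = 0.157). V6.5 was above all colonies for both. Eed, at 165 to 170.0 CPM in the 6 colonies against 157 CPM in V6.5, had a log2 change of 0.10 ± 0.08 (SE, edgeR adjusted p = 0.453). Jarid2 and Mtf2 had V6.5 within the range of the colonies.

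Rnf2, the ligase that attaches ubiquitin to H2A in most stem cell PRC1, was at 119, 131 and 123 CPM in M colonies and 114, 118 and 122 CPM in GC colonies, against 146 CPM in V6.5. All colonies lay lower, and the log2 change was -0.27 ± 0.08 (SE, edgeR adjusted p = 0.0448). The call was lost without M colony 1 (adjusted p = 0.0578), M colony 3 (0.0815), GC colony 1 (0.0702), GC colony 2 (0.0975) or both M colonies 2 and 3 (0.0543). Ring1 also had all colonies below V6.5, at 12.7, 15.7 and 14.5 CPM in M colonies and 11.5, 12.04 and 10.9 CPM in GC colonies, against 17.5 CPM in V6.5. Its log2 change was -0.45 ± 0.15 (SE, edgeR adjusted p = 0.0663), with 0.0448 without M colonies 2 and 3.

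Pcgf5 had the largest rise of the 34 genes. It was at 64.8, 61.9 and 74.7 CPM in M colonies 1, 2 and 3 and 56.6, 48.2 and 56.8 CPM in GC colonies 1, 2 and 3, against 38.6 CPM in V6.5. V6.5 was below all 6 colonies. The log2 change was 0.64 ± 0.13 (SE, edgeR adjusted p = 0.00384), or 1.56-fold, and it passed in all 6 fits that left out 1 colony.

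Bcor, an X-linked corepressor that joins Pcgf1 and Kdm2b in a variant PRC1, was at 73.6, 69.1 and 66.96 CPM in M colonies and 62.7, 66.5 and 75.3 CPM in GC colonies, against 48.9 CPM in V6.5. V6.5 was again below every colony. The log2 change was 0.50 ± 0.11 (SE, edgeR adjusted p = 0.00817), or 1.41-fold, and it passed in all 6 fits that left out 1 colony. Its paralog Bcorl1 had a log2 change of -0.44 ± 0.18 (SE, edgeR adjusted p = 0.130). The partners Pcgf1 and Kdm2b, with log2 changes of -0.34 ± 0.16 and 0.24 ± 0.13 (SE), did not pass (edgeR adjusted p = 0.169 and 0.230).

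**Figure D4:**
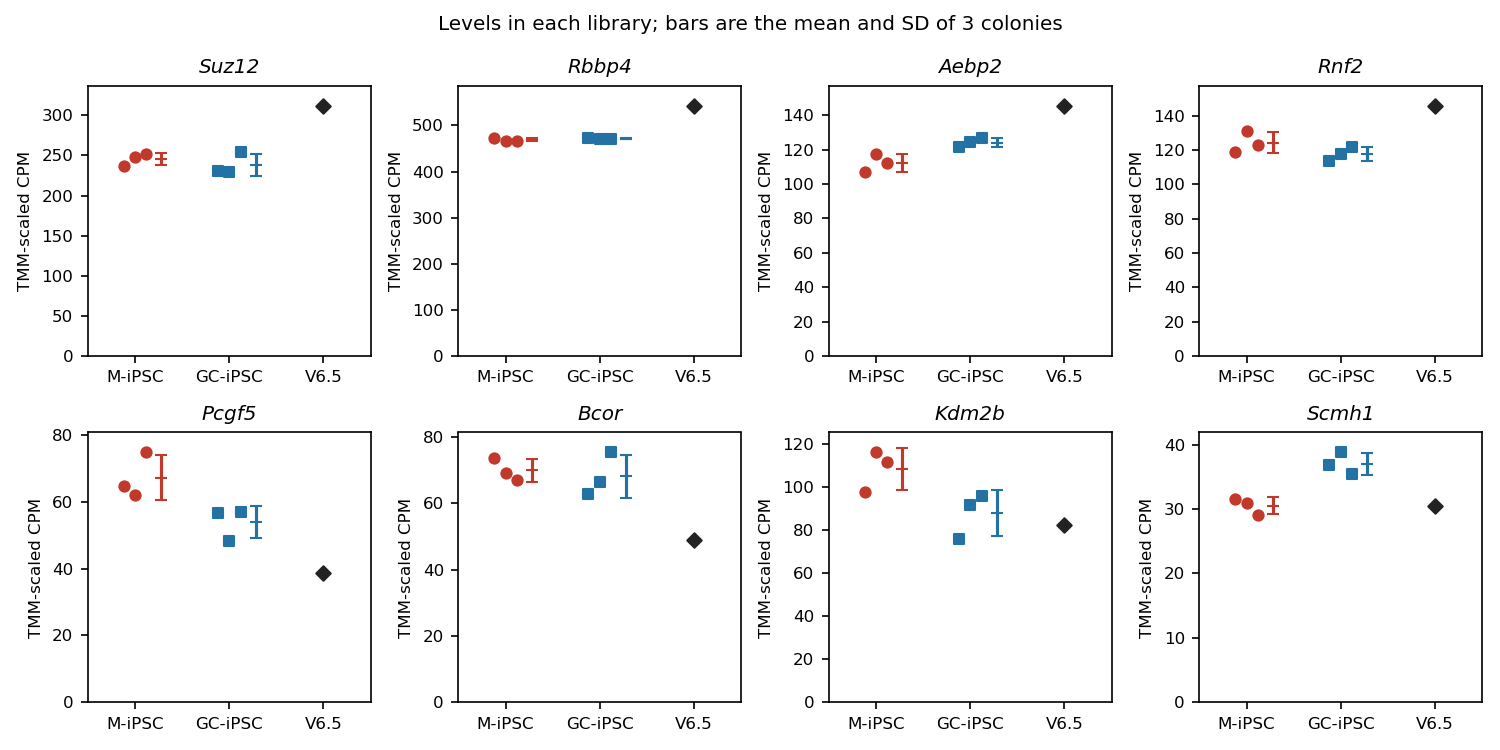
TMM-scaled CPM of 8 subunits in each library, with circles for M-iPSC colonies, squares for GC-iPSC colonies, a diamond for V6.5, and bars for the mean and SD of 3 colonies. V6.5 lies above all colonies for Suz12, Rbbp4, Aebp2 and Rnf2 and below them for Pcgf5 and Bcor, and M colonies lie above GC colonies for Kdm2b and below them for Scmh1.

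Other subunits came close to the threshold. The edgeR adjusted p was 0.0560 for Pcgf2 (log2 change -0.28 ± 0.09 SE) and for Yaf2 (0.49 ± 0.16 SE), 0.0570 for Cbx2 (-0.36 ± 0.12 SE) and 0.0716 for Bmi1 (0.49 ± 0.17 SE). Without M colonies 2 and 3, Pcgf2 passed (adjusted p = 0.0490). DESeq2 called Pcgf2 (adjusted p = 0.0491) and Yaf2 (0.0326) besides the 6 named above (17.2% of all genes), and limma-voom called those 6 alone (13.5% of all genes). Pcgf2 and Yaf2 also passed by edgeR with no low-count filter. Yaf2 passed without M colony 2 or GC colony 3 as well, and Cbx2 without GC colony 3. Bmi1 was at 16.2, 14.1 and 15.9 CPM in M colonies and 14.7, 12.04 and 14.2 CPM in GC colonies, against 10.4 CPM in V6.5, and Cbx2 at 24.5, 26.1 and 27.9 CPM in M colonies and 28.3, 28.9 and 31.1 CPM in GC colonies, against 35.5 CPM in V6.5. Bmi1 thus lay above V6.5 in every colony and Cbx2 below it. V6.5 stood outside the range of the 6 colonies for 22 of 34 subunits (64.7%), against 51.4% of all genes tested, above them for 15 and below them for 7 (25.7% of all genes each). In PRC2, V6.5 was above all colonies for 7 of 11 genes and below for 2.

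**Figure D5:**
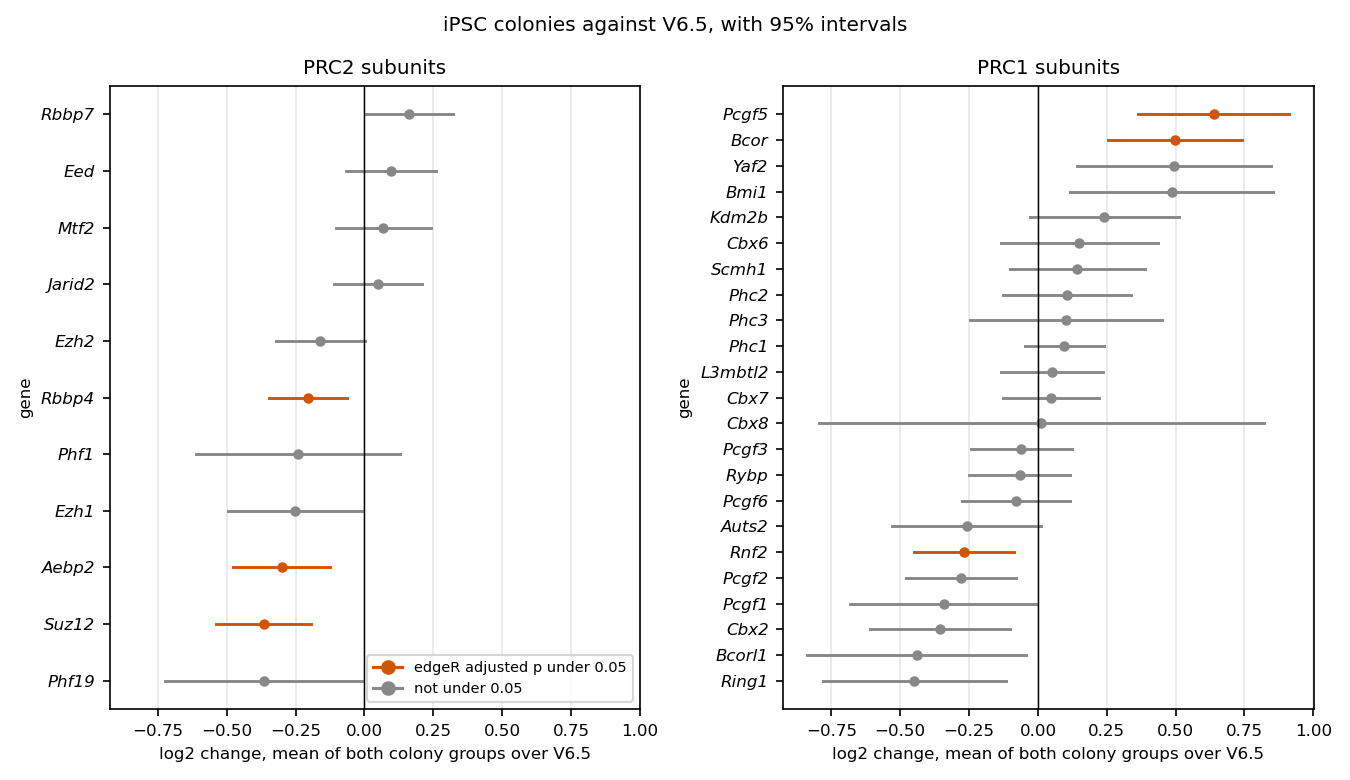
log2 change of each PRC2 subunit (left) and PRC1 subunit (right) in the mean of both colony groups over V6.5, with 95% intervals from the edgeR fit and orange for an adjusted p under 0.05. In PRC2 the 3 orange genes lie below 0, and in PRC1 Pcgf5 and Bcor lie above 0 and Rnf2 below.

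Markers of other cells also moved between the colonies and V6.5. Of all genes tested, 8.76% rose and 7.56% fell. Primitive endoderm markers summed to 603 to 1039 CPM in M colonies and 395 to 508 CPM in GC colonies, against 118 CPM in V6.5, and 10 of 10 rose. Fibroblast markers summed to 789 to 1010 CPM in M colonies and 715 to 854 CPM in GC colonies, against 494 CPM in V6.5, and 8 of 13 tested rose. Of the 10 pluripotency genes, 7 fell and 0 rose. Their part in the Polycomb values was not tested.

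Other genes of the pathway were partners, antagonists and demethylases outside the list of subunits. Between M and GC colonies 0 of 37 tested passed, against 3.97% of all genes. At an unadjusted p under 0.05, 7 were higher and 2 lower, against 7.97% and 8.67% of all genes. DESeq2 called 1 higher and 1 lower (6.11% of all genes in either direction) and limma-voom 1 lower (3.9%). With no low-count filter edgeR called 2 higher and 2 lower (4.17%). The limma-voom call and 1 of the 2 lower ones with no filter were Uty, at 0 counts in M colonies 2 and 3, without which no pathway gene was called. Samd11 did not pass the filter. In the colonies over V6.5, 3 of 38 rose and 4 fell (18.4%, against 16.3% of all genes). L3mbtl3, an MBT-domain reader of methylated lysine, rose by 1.56 ± 0.21 on the log2 scale (SE, edgeR adjusted p = 0.000208), at 16.9, 14.4 and 20.1 CPM in M colonies and 13.3, 12.7 and 13.5 CPM in GC colonies, against 5.09 CPM in V6.5. Sfmbt2, a Polycomb protein needed for the placenta, rose by 0.97 ± 0.13 (SE, edgeR adjusted p = 0.000238). Epop, which binds PRC2 and elongin in stem cells, rose by 0.56 ± 0.14 (SE, edgeR adjusted p = 0.0133). Its level was 249.7, 218 and 235 CPM in M colonies and 233, 225 and 171 CPM in GC colonies, against 150.4 CPM in V6.5, with GC colony 3 the nearest to V6.5.

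Skida1 fell by 1.31 ± 0.30 on the log2 scale (SE, edgeR adjusted p = 0.00836), at 2.75, 4.49 and 3.14 CPM in M colonies and 2.55, 1.52 and 2.35 CPM in GC colonies, against 6.77 CPM in V6.5. Mbd6, a partner of the H2A deubiquitinase, fell by 0.44 ± 0.09 (SE, edgeR adjusted p = 0.00379), and Wdr5, which PRC1 shares with histone methyltransferases of active genes, by 0.36 ± 0.08 (SE, edgeR adjusted p = 0.00474). Tfdp1, the dimer partner of the E2F factors, fell by 0.24 ± 0.07 (SE, edgeR adjusted p = 0.0447). That call was lost without M colony 2, M colony 3, GC colony 1, GC colony 2 or both M colonies 2 and 3, at an adjusted p of up to 0.131, and with no low-count filter (0.0602).

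A list of developmental genes known as Polycomb targets was also read. Not all of them were silent here: Tbx3, 1 of the 3 that fell against V6.5, was at 101 to 210 CPM across the libraries. Between M and GC colonies 0 of 34 tested passed, against 3.97% of all genes. At an unadjusted p under 0.05, 6 were higher and 2 lower, against 7.97% and 8.67% of all genes. Of all genes, DESeq2 called 6.11%, limma-voom 3.9% and edgeR with no low-count filter 4.17%. Among the developmental genes the counts were as follows. DESeq2 called 1 lower, limma-voom none, edgeR with no low-count filter 3 higher and 1 lower, and edgeR without M colonies 2 and 3 also 3 higher and 1 lower. In the colonies over V6.5, 9 of 37 tested rose and 3 fell (32.4%, against 16.3% of all genes). The 9 include Pax3, which passed the low-count filter only through the colonies. Of the 9 that rose, Gata4, Gata6, Sox17 and Foxa2 are also in the list of primitive endoderm markers, all 10 of which rose. Hand1, a regulator of trophoblast and heart, was at 10.6, 15.7 and 14.7 CPM in M colonies and 13.5, 14.96 and 9.73 CPM in GC colonies, against 1.68 CPM in V6.5 (log2 change 2.97 ± 0.33 SE, edgeR adjusted p = 5.33e-05). Gata4 was at 102, 62.9 and 111 CPM in M colonies and 68.6, 56.3 and 56.5 CPM in GC colonies, against 16.5 CPM in V6.5 (log2 change 2.18 ± 0.26 SE, edgeR adjusted p = 9.31e-05). Colonies lay above V6.5 throughout for both.

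The cell-cycle inhibitor Cdkn2b rose by 1.26 ± 0.20 on the log2 scale (SE, edgeR adjusted p = 0.000862), at 15.1, 12.2 and 12.3 CPM in M colonies and 13.04, 13.6 and 11.3 CPM in GC colonies, against 5.39 CPM in V6.5. Its neighbour Cdkn2a was at 24.7, 18.3 and 21.1 CPM in M colonies and 20.8, 21.6 and 16.7 CPM in GC colonies, against 13.9 CPM in V6.5, and did not pass. Of the Hox genes, Hoxc6 alone passed, at 2.90, 2.01 and 1.65 CPM in M colonies and 2.94, 2.77 and 2.64 CPM in GC colonies, against 0.938 CPM in V6.5 (edgeR adjusted p = 0.0303, and 0.0541 without GC colony 2). The mesoderm factor T, called Brachyury, passed at an edgeR adjusted p of 0.0481 and in 3 of 6 fits that left out a colony, losing the call without M colony 1, M colony 2 or GC colony 2. Pax3 was at 0.183, 0.299 and 0.380 CPM in M colonies and 0.499, 0.488 and 0.251 CPM in GC colonies, against 0 counts in V6.5 (edgeR adjusted p = 0.0396). With 0 counts in V6.5, Pax3 could enter this test only through the colonies, where it is higher, so its call is not taken as support for a rise. It passed in 2 of 6 such fits, losing the call without M colony 2, M colony 3, GC colony 1, GC colony 2 or both M colonies 2 and 3. Without M colonies 2 and 3, which leaves 1 M library, the remaining colonies lay above V6.5 for Cdkn2a and below it for Olig2. Olig2 was at 6.23 CPM in M colony 1 and 17.9, 17.7 and 13.5 CPM in GC colonies, against 18.6 CPM in V6.5. In M colonies 2 and 3 it was at 18.9 and 16.4 CPM, so its low side rests mainly on M colony 1. With limma-voom the adjusted p was 0.0945 for Hoxc6, 0.219 for T and 0.174 for Pax3, and with DESeq2 that of Pax3 was 0.0518.

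Lhx2, Pax6 and Tbx3 fell. Tbx3, which also supports mouse stem cell self-renewal, was at 101, 137 and 119.8 CPM in M colonies and 112, 113 and 119 CPM in GC colonies, against 209.6 CPM in V6.5 (log2 change -0.84 ± 0.11 SE, edgeR adjusted p = 0.000233). Pax6, a regulator of eye and forebrain, was at 3.67, 3.62 and 1.90 CPM in M colonies and 4.33, 5.24 and 5.05 CPM in GC colonies, against 8.91 CPM in V6.5 (log2 change -1.20 ± 0.28 SE, edgeR adjusted p = 0.00917). Lhx2, a forebrain regulator, fell by 1.31 ± 0.32 (SE, edgeR adjusted p = 0.0134), and the colonies lay below V6.5 for all 3 genes. Most of these target genes were low: Hoxd3, Hoxd11, Nkx2-2 and Neurog2 did not pass the filter in either comparison, nor did Hoxa13, Hoxb2 and Evx1 between M and GC colonies. Against V6.5, Hoxa13, Hoxb2 and Evx1 passed the filter through the colonies, at 0, 0.168 and 0 CPM in V6.5.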

How the data were processed

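Poly-A RNA was sequenced from 3 M-iPSC colonies, 3 GC-iPSC colonies and 1 V6.5 culture. The authors deposited raw counts per Ensembl gene. The submitters' processing notes name STAR 2.7.10a, featureCounts 2.0.6, DESeq2 with no version, and the build mm10 (GRCm38). The labels disagree on the library (non-stranded in the design text, a directional kit in the sample protocol), and the strand and multi-mapping settings of the count are not given in the sources used here. Exons of 13 of the 34 subunits overlap another gene, in 2 cases (Cbx6 and Kdm2b) one on the same strand, and their counts may be shared with it. Among counts of 1 to 49, 68.54% to 72.24% were even, so counts may exceed fragments; floors cover counting error only, while the 95% intervals of changes come from the fit across libraries.

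Gene names, positions and exon lengths came from GENCODE M21 (GRCm38), which matched 54809 of 54838 genes, and promoter windows from RefSeq (GRCm38.p6). M-iPSC were compared with GC-iPSC colonies in a fit of 6 libraries (18166 genes after filterByExpr), and the mean of both colony groups with V6.5 in a fit of 7 libraries (20502 genes). Both used TMM scaling, glmQLFit and glmQLFTest of edgeR 4.0.16 in R 4.3.3, two-sided, with Benjamini-Hochberg adjustment over all genes tested and a threshold of 0.05. An SE is the size of the log2 change divided by the root of F. CPM are TMM-scaled in the 7-library fit. The fits were tested on simulated data. Alternatives were DESeq2 size factors, no low-count filter, DESeq2 1.42.0, limma-voom (limma 3.58.1), leaving out each colony, leaving out M colonies 2 and 3, and the colony number as a block. The length of the longest coding transcript was added after seeing the data. Full statistics are given for subunits past the threshold and for Ezh2, Ezh1, Eed, Suz12, Ring1 and Rnf2, and for up to 8 genes past the threshold of each other list. The subunits and gene lists were chosen with earlier results of these data known.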

Additional observations from a re-analysis of the deposited data

How the results depend on the processing

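Between M and GC colonies, 721 genes were called in all, 1318 with no low-count filter, 1110 with DESeq2, 373 without M colonies 2 and 3 (which leaves 1 M library, assumed to vary like the GC colonies) and 244 to 814 when 1 colony was left out. Higher subunits, 0 as reported, were 2 with no filter, 2 with DESeq2, 2 under the replicate block (Pcgf5, adjusted p = 0.0252, and Kdm2b, 0.0149) and 0 to 1 without 1 colony, and lower ones 1 with DESeq2. Pathway genes called higher and lower were 2 and 2 with no filter, 1 and 1 with DESeq2 and 1 and 1 under the replicate block, with 1 lower in limma-voom and 0 to 2 higher and 0 to 1 lower without 1 colony. Developmental targets called were 3 higher and 1 lower with no filter, 1 lower with DESeq2, 2 higher under the replicate block, 3 higher and 1 lower without M colonies 2 and 3, and 0 to 3 higher and 0 to 1 lower without 1 colony. M and GC colonies of the same number deviated together with correlations of 0.092, 0.083 and 0.148 across genes, so the numbers were not taken as pairs, although each colony correlated best with its own number; with the colony number as a block 963 genes were called. PRC2 genes with a positive change numbered 3 of 11 as reported, 4 with DESeq2 size factors, with no filter and with DESeq2, 2 to 5 without 1 colony and 2 without M colonies 2 and 3. Without M colonies 2 and 3, small log2 changes of M over GC changed sign: Ezh1 -0.0583, Suz12 -0.0067, Rbbp4 0.0007, Pcgf3 -0.0113, Cbx6 -0.10, Phc3 -0.15 and Bcorl1 -0.19. That of Eed was 0.0000 with DESeq2 size factors and with DESeq2, and 0.0014 with no filter. Without 1 colony it ranged from -0.05 to 0.11 for Ezh1, -0.0344 to 0.0127 for Ezh2, -0.015 to 0.0068 for Eed, -0.0077 to 0.23 for Cbx6, -0.0219 to 0.12 for Bcor and -0.041 to 0.17 for Bcorl1. Over V6.5, Cbx8 was -0.0311 in limma-voom, -0.0927 without M colonies 2 and 3 and -0.13 to 0.094 without 1 colony, and Phc3 was -0.01 without M colonies 2 and 3. Subunits called lower there, 4 as reported, were 1 to 5 without 1 colony, and the median of all genes was 0.17 with no filter. By the longest coding transcript, the share of Ezh2 was 87.2%, Rbbp7 63.0%, Rnf2 85.5%, Pcgf2 31.4%, Cbx7 78.0% and Phc1 93.2%. The causes were not tested. Cbx8, with the lowest count of any subunit, 52, had the widest SE between M and GC colonies, 0.29.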
